A study of Mus musculus with 2 samples.

Results

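Among the single mouse embryonic stem cells of the MERVL-GFP positive library, 342 cells held transcripts of the endoderm genes Gata6, Sox17, Pdgfra and Dab2 and few transcripts of 28 genes of the 2-cell-like (2C) programme. A cell was taken when it had at least 10000 UMIs (molecule counts), at least 0.03% of them from those 4 genes and less than 0.05% from the 28 genes. The 28 genes are Zscan4a to Zscan4f, Sp110, Zfp352, Tmem92, AF067061 and the symbols that start with Usp17l, Tdpoz or Tcstv. The 342 cells were 7.77% (exact binomial interval 6.99 to 8.60) of the 4403 positive-library cells with enough UMIs, out of 4603 cells in that library and 8435 in the series. They were compared with the 2622 positive-library cells below both limits, called comparison cells here. Members were thus chosen by the measured levels of these 32 genes. The values of those genes are a description, and the comparison of all other genes in the same cells is given without a test for the same reason.

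The cells were a line of mouse embryonic stem (mES) cells, pluripotent cells that renew themselves in culture. The line carried GFP driven by the promoter of the retrovirus-like element MERVL, which is transcribed in the 2-cell embryo, and the nuclear label H2B-mIFP, so reporter and label were shared by all cells of both libraries. The study followed what becomes of 2C-like cells, and single-cell transcriptomes were deposited as a MERVL GFP positive and a MERVL GFP negative library. The sources used here do not say how the reporter was used to separate cells, and no other treatment is labelled. Each group has 1 library, so that library, any batch and reporter group cannot be told apart.

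Primitive endoderm is the layer of the early embryo that forms beside the pluripotent epiblast, under FGF signalling, and is marked by the transcription factors Gata6, Gata4, Sox17 and Sox7. It gives rise to visceral endoderm, which takes up nutrients through the receptors cubilin and megalin, and to parietal endoderm, which lays down a thick basement membrane of laminin and type IV collagen. Embryonic stem cell cultures are known to hold some cells with this programme.

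The positive library held 138364094 UMIs and the negative library 156406894. The endoderm-like cells had a median of 33415.5 UMIs, 5744.5 genes and 2.15% mitochondrial UMIs per cell, against 32757.5, 5824 and 2.43% in comparison cells. The 200 positive-library cells under 10000 UMIs were not used. The libraries shared 3 barcodes, 1 of them among the endoderm-like cells, and without those cells 507 genes in place of 503 were higher. Of the endoderm-like cells 9 (2.63%) had more than 2 times the library's median UMIs, against 61 comparison cells (2.33%). With 1 library per group there is no test. Intervals are at 95% and reflect counting error alone.

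The median endoderm-like cell had 0.135% of its UMIs from the 4 markers, with quartiles of 0.0802% and 0.208% and a highest value of 0.555%. Of the comparison cells 1448 (55.2%) had 0 UMIs of the 4 markers. The class is a range of a score: 16 members had 0.03 to 0.04% and 23 comparison cells had 0.02 to 0.03%. The median share of the 2C genes was 0.0105% in members and 0.0106% in comparison cells, with 19 members between 0.04 and 0.05%. In the scatter of both shares the members form a cloud above the endoderm limit that continues across the 2C limit into 166 cells at or above both limits.

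**Figure D1:**
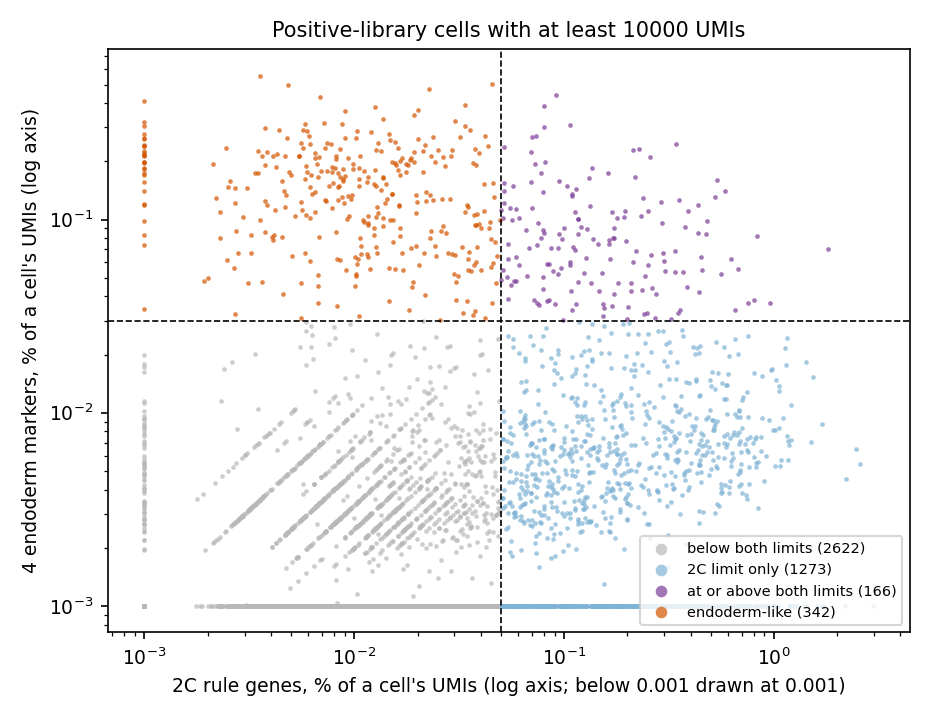
Each point is a positive-library cell with at least 10000 UMIs; the axes give the percent of its UMIs from the 2C rule genes and from the 4 endoderm markers, both on log axes, and dashed lines mark the limits of 0.05% and 0.03%. The 342 endoderm-like cells lie in the upper left field, the 166 cells at or above both limits in the upper right, and values below 0.001% are drawn at 0.001%.

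All 4 markers were seen together in most members. Without thinning, 217 of the 342 cells had a UMI of all 4, 94 of 3, 24 of 2 and 7 of 1. After each cell was thinned to 10000 UMIs the numbers were 102, 133, 73 and 34. Gata6, the zinc-finger factor that starts the endoderm programme, ranged from 0 to 1890 CPM over single members with a median of 521, and 11 members (3.22%) had none. Dab2, an endocytic adaptor, had a median of 393 CPM and reached 5233 in the highest cell. The median was 126 CPM for Pdgfra, the PDGF receptor alpha, and 62.3 CPM for the transcription factor Sox17, which was at 0 in 105 members (30.7%). In comparison cells the median of each of the 4 was 0. Dab2 and Gata6 held the most marker UMIs in 146 and 174 cells, and Sox17 and Pdgfra did so in 6 and 16. In 4 cells Dab2 was the only marker with a UMI.

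The share of endoderm-positive cells was similar along most of the 2C axis and lowest at its end. It was 15.5% (29 of 187 cells) without 2C UMIs, 11% (134 of 1213) up to 0.01%, and 11.4% (179 of 1564) from 0.01 to 0.05%. Above the 2C limit it was 14.9% from 0.05 to 0.1%, 11.8% from 0.1 to 0.2% and 11.8% from 0.2 to 0.5%. Of the 240 cells with at least 0.5% of their UMIs from the 2C genes, 12 (5%, 2.61 to 8.57) passed the endoderm limit.

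UMIs were summed over the cells of each class and scaled to the class total as CPM. A gene outside the rule was counted as higher or lower when CPM + 1 differed at least 2-fold, with at least 10 CPM in 1 class and at least 50 UMIs in both together. Of 8172 genes measured, 503 (6.16%) were higher in endoderm-like cells and 420 (5.14%) were lower. At least 4-fold, 163 (1.99%) were higher and 82 (1%) lower. Because the rule used this contrast, nothing is read from these counts or from those of the gene lists against them. The median log2 ratio of all measured genes was -0.02. With genes down to 1 CPM the counts were 783 and 992, so that the share of higher genes among all counted went from 54.5% to 44.1%. Over each list below, the median log2 ratio of its measured members is given beside that value.

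The label was checked against primitive endoderm genes outside the rule. Gata4, Sox7, Sparc, Lama1 and Col4a1 were higher in members by 41.2-fold (33.1 to 51.9), 50.9-fold (37.5 to 70.4), 9.10-fold (8.90 to 9.31), 30.9-fold (29.1 to 32.7) and 15.6-fold (15.04 to 16.2). These are ratios of CPM without the added 1. Comparison cells had 1.08 CPM of Gata4 and 0.544 of Sox7, and at such low levels the ratio of CPM + 1 is smaller. Of the other endoderm, the definitive endoderm of gastrulation, the defining markers were at or near 0: T had 0.0858 CPM, Mixl1 and Gsc 0.257 each, Cxcr4 0.429 and Lhx1 1.201, and Cer1 had 0 UMIs, with an exact Poisson upper bound of 0.316 CPM. Eomes, which is also in the endoderm factor and trophoblast lists, had 6.78 CPM against 3.27. Of 11 genes in that list, with 17.2 CPM in sum in members and 63.1 in comparison cells, 1 was measurable, Trh, which encodes thyrotropin-releasing hormone and was lower in members at 7.29 against 52.8 CPM. Of 4 measurable trophoblast genes 1 was higher, the TEA-domain factor Tead4 at 13.8 against 3.37 CPM, and 2 were lower, Tfap2c at 10.04 against 24.3 and Esx1 at 3.60 against 10.08. Ascl2 had 10.4 against 11.6 CPM, and Elf5, Cdx2, Hand1 and Gata3 had 0.0858, 1.201, 1.29 and 1.97 CPM in members. Of fibroblast genes Col1a1 had 0.601 CPM in members and Col3a1, Lum and Dcn had 0 UMIs. The summed level of the 13 trophoblast genes was 57.3 CPM in members and 68.0 in comparison cells, and that of the 12 fibroblast genes 19.4 and 27.1. The name primitive endoderm-like is used for these 5 markers, since the rule fixed the levels of its own 4.

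Of 10 endoderm transcription factors 7 were measurable, 5 were higher and 0 were lower, with a median log2 ratio of 3.48, or 2.29 over all members with no filter on low values. Foxq1, a forkhead factor on chromosome 13 (31556134 to 31560976, plus strand, GRCm38), had the largest log2 ratio of CPM + 1 among genes outside the rule, 5.84, with 341 CPM (331 to 352) in members and 4.96 (4.50 to 5.44) in comparison cells. After thinning it was seen in 75.1% of members (70.2 to 79.6) and in 3.97% of comparison cells. Gata4, the partner of Gata6 in endoderm, had 44.4 CPM (40.7 to 48.4) against 1.08 and was seen in 34.8% of thinned members against 1.26%. Sox7, an SRY-box factor, had 27.7 against 0.544 CPM. Foxa2 had 11.4 CPM (9.55 to 13.5) against 0.249. Tcf7l2 and Hhex did not reach 2-fold, at 12.4 against 10.7 and 9.26 against 12.2 CPM. Hnf4a, Gata5 and Eomes stayed under 10 CPM in both classes, at 2.74, 0.0858 and 6.78 CPM in members.

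Basement membrane genes had 14 of 14 members measurable, 7 higher and 2 lower, with a median log2 ratio of 1.39. The 3 chains of laminin-111 were all higher. Lama1 had 504 CPM (491 to 517) against 16.3, Lamb1 had 568 against 28.8 and Lamc1 had 801 against 109. The type IV collagen chains Col4a1 and Col4a2 had 738 against 47.3 CPM and 369 against 18.2 CPM. Sparc, a collagen-binding matrix protein, had 1403 CPM (1382 to 1425) against 154 and ranged over the 342 cells from 29.7 to 10155 CPM with a median of 1293, against a median of 128 in comparison cells. It was seen in 98.8% of thinned members and 72.5% of thinned comparison cells. Hspg2, the proteoglycan perlecan, had 176 against 38.0 CPM. Fn1 (fibronectin) and Col18a1 went the other way, at 68.5 against 237 CPM and 19.9 against 61.0 CPM. Members of this list therefore did not all differ in 1 direction.

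Col4a1 and Col4a2 lie head to head on chromosome 8 and were both higher, so their start regions are shown. The windows run from 250 bases before to 50 bases after each start (RefSeq, GRCm38.p6), at chr8:11312777-11313076 on the minus strand for Col4a1 and at chr8:11312555-11312854 on the plus strand for Col4a2. Capitals mark the 78 bases, 11312777 to 11312854, that both windows share on opposite strands.
Col4a1: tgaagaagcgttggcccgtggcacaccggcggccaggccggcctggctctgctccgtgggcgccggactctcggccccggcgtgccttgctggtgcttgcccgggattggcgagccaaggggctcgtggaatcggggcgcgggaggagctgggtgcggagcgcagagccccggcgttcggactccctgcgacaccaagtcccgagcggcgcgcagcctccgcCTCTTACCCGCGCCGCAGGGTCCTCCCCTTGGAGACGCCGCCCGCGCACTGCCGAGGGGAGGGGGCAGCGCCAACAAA
Col4a2: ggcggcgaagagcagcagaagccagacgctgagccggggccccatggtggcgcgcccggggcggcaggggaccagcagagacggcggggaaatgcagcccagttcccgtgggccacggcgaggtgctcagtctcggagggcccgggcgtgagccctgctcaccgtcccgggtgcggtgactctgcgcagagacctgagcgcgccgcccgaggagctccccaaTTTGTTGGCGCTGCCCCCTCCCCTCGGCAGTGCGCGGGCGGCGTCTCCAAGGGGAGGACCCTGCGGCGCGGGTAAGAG
The bases that run away from the shared stretch in the Col4a2 window lie inside the Col4a1 gene, and the reverse holds for Col4a1. How the authors' counting treated strand is not given in the sources used here, so reads from the region where the genes overlap may be shared between them.

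The letters AGATAA, the core bound by GATA factors, were searched on both strands of such windows because Gata6 is a rule gene. They occurred in 3432 of 27025 promoter windows (12.7%) and in 461 of the 6478 measured genes with a window (7.12%). Of the higher genes 36 of 379 (9.50%) held them and of the lower genes 18 of 306 (5.88%). Among the 15 genes with the largest ratio, 11 had a window and 0 held them, which says only that these letters are not in those 300 bases.

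Enzymes and chaperones that make collagen were higher in 8 of 11 measurable genes and lower in 0, with a median log2 ratio of 1.36. Serpinh1, the collagen chaperone HSP47, had 644 CPM (629 to 658) against 18.6, was seen in 90.9% of thinned members against 15.6% of comparison cells, and had a median over single members of 553 CPM. The prolyl hydroxylase subunits P4ha1, P4ha2 and P4hb had 179 against 36.4, 318 against 41.1 and 369 against 144 CPM. The lysyl hydroxylases Plod1, Plod2 and Plod3 had 29.2 against 8.69, 206 against 51.5 and 21.02 against 9.80 CPM. The prolyl isomerase Ppib had 533 against 244 CPM. Without the cells of subgroup 1, described further on, the log2 ratios of Plod3 and Ppib were 0.77 and 0.91, under 2-fold.

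Genes of both later endoderm lineages were among the higher ones. Of 17 visceral endoderm genes 6 were measurable, 4 higher and 1 lower, with a median log2 ratio of 1.99, or 0.23 over all members with no filter. Cubn (cubilin), its anchor Amn (amnionless) and Lrp2 (megalin), which form an uptake receptor, had 73.5 against 2.05, 48.1 against 3.03 and 80.8 against 17.5 CPM. Apoe, an apolipoprotein, had 1031 against 288 CPM, and Rbp4, which carries retinol, was lower at 4.29 against 13.6. The secreted proteins that mark mature visceral endoderm were at or near 0 in members, with 0 UMIs of Ttr and 0.343 CPM of Afp. Of 12 parietal endoderm genes 7 were measurable and 7 were higher, with a median log2 ratio of 2.15. The proteoglycan Srgn had 308 against 7.87 CPM, the zinc-finger factor Snai1 55.9 against 4.72, the tetraspanin Cd63 409 against 91.2, the intermediate filament Vim 509 against 194 and the coagulation inhibitor Tfpi 90.0 against 35.1. Fst (follistatin), at 22.4 against 6.56 CPM, fell under 2-fold, to a log2 ratio of 0.60, without the 117 cells of subgroup 1 described further on. Thbd, which marks parietal endoderm, had 0 UMIs.

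**Figure D2:**
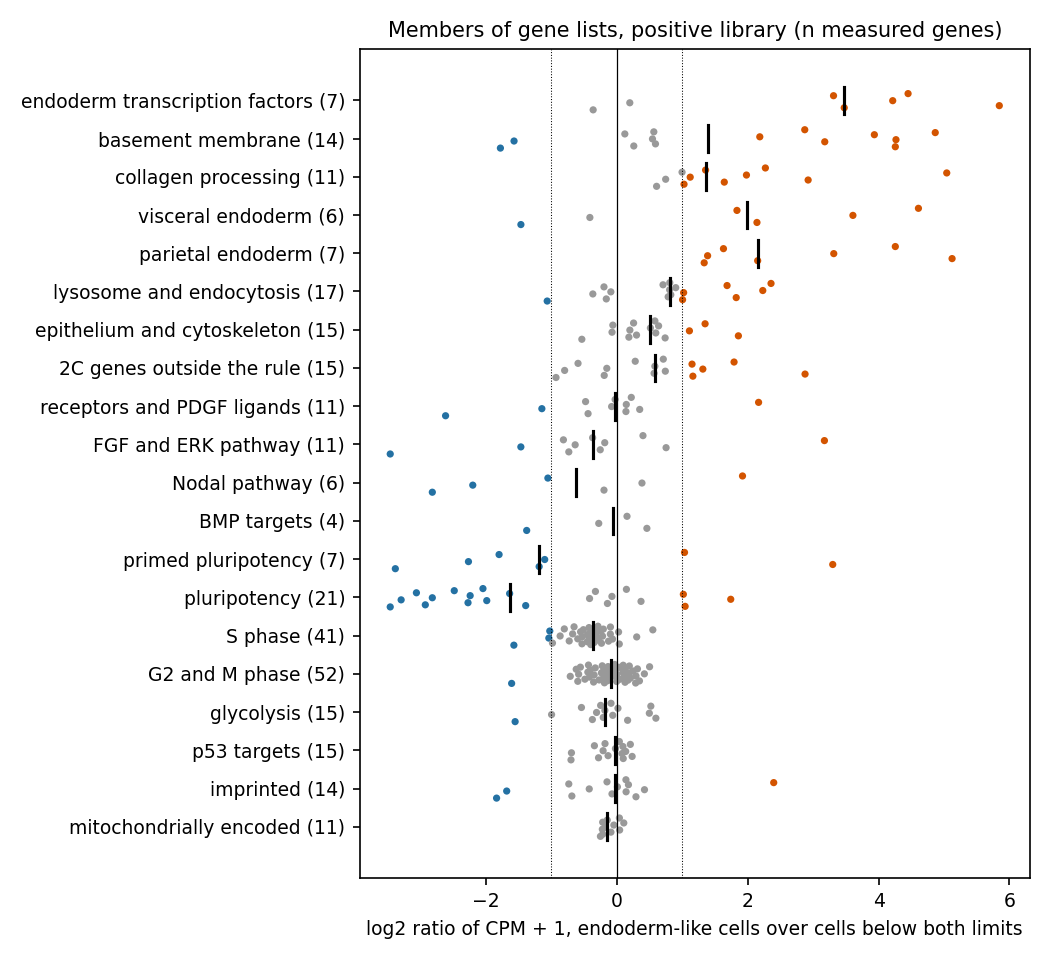
Each point is a measured gene of a list and its log2 ratio of CPM + 1 between endoderm-like and comparison cells; black bars are list medians, dotted lines mark 2-fold, and orange and blue points are genes counted as higher and lower. The endoderm, basement membrane and collagen lists reach past a log2 ratio of 4, and the pluripotency list has 12 of 21 genes below the lower line.

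Lysosomal and endocytic genes were higher in 6 of 17 and lower in 1, with a median log2 ratio of 0.81. The protease Ctsl had 1707 CPM (1683 to 1731) against 363, Ctsz 209 against 64.4, Ctsc 63.2 against 17.1 and the syndecan Sdc4 474 against 91.6. Epithelial and cytoskeletal genes were higher in 3 of 15 and lower in 0, with a median of 0.51. These were the keratins Krt8, at 92.6 against 24.8 CPM, and Krt18, at 82.4 against 31.7, and S100a10, at 445 against 206. The Krt18 ratio depended on the 98 cells of subgroup 2, without which it was 0.44 on the log2 scale, and on Dab2 in the rule, without which it was 0.50.

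Ligands, receptors and targets of signalling pathways differed gene by gene. Fgf4, the ligand that pluripotent cells use to induce endoderm, was lower in members at 12.3 CPM (10.3 to 14.5) against 145 (143 to 148). Among 11 measurable receptor and PDGF ligand genes 1 was higher and 2 were lower, with a median log2 ratio of -0.03. The higher one was the FGF receptor Fgfr2, at 23.8 against 4.51 CPM. Fgfr1 was at 13.4 against 30.8 CPM and the stem cell factor receptor Kit at 8.06 against 54.6. Pdgfa, the ligand of Pdgfra, was at 84.5 and 86.0 CPM, a ratio of 0.983 (0.919 to 1.05). Of 11 genes of the FGF and ERK pathway 1 was higher and 2 were lower, with a median of -0.37. The ERK phosphatase Dusp4 had 185 against 19.7 CPM, the ETS factor Etv5 was lower at 23.6 against 66.9, and Spry2, a feedback inhibitor, did not reach 2-fold at 217 against 128. The Nodal pathway had 1 of 6 genes higher and 3 lower, with a median of -0.62, or 0.09 with no filter: the antagonist Lefty2 had 30.9 against 7.42 CPM, the ligand Nodal 7.72 against 39.1, the co-receptor Tdgf1 142 against 1006 and the inhibitor Smad7 75.3 against 157.

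Of 3 measurable Wnt targets 2 were higher and 1 lower, with a median of 1.30, which became -0.56 over members with at least 1 CPM and -0.21 with no filter. Dkk1, a secreted Wnt antagonist, had 121 CPM (115 to 128) against 2.29 and was seen in 51.2% of thinned members against 1.68% of comparison cells. Axin2 had 15.8 against 5.82 CPM and Tcf7 4.12 against 11.8. Of 4 BMP targets 0 were higher and 1, Id2, was lower at 28.2 against 74.9 CPM, with a median of -0.06, or -0.55 with no filter. With a 2C limit of 0.01% the log2 ratio of Id2 was -0.87, short of 2-fold. All 3 measurable retinoic acid genes were lower, with a median of -1.86, or -0.76 with no filter: the binding proteins Crabp1 and Crabp2 had 15.01 against 78.2 and 2.32 against 11.01 CPM. Of 14 imprinted genes 1 was higher, the noncoding RNA H19 at 64.0 against 11.3 CPM, and 2 were lower, Cdkn1c and Plagl1, with a median of -0.03.

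The 15 higher genes outside the rule with the largest log2 ratio were Foxq1, Cyp4f14, Nostrin, Dkk1, Gata6os, Srgn, Serpinh1, Lama1, Flrt3, Cubn, Gata4, Runx1, Amot, Col4a2 and Lamb1, with log2 ratios from 4.26 to 5.84. All 15 stayed past 2-fold in the same direction under every alternative setting that was run. They were picked for the largest ratios in the same cells, so this was largely fixed by the choice. Cyp4f14, a cytochrome P450, had 154 CPM (147 to 162) against 1.70, and Nostrin, an adaptor in endothelial nitric oxide synthase trafficking, had 117 against 2.03. Flrt3, a transmembrane adhesion protein, had 146 against 4.33, and Runx1, a factor best known from blood formation, had 126 against 4.91 and was seen in 60.8% of thinned members against 4.42%. Amot (angiomotin), a Hippo pathway scaffold, had 181 against 8.30. Gata6os had 60.1 against 0.669 CPM, but it overlaps Gata6 on the opposite strand, and reads of the 2 genes cannot be told apart without strand.

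Of 21 pluripotency genes 12 were lower, 3 higher and 6 neither, with a median log2 ratio of -1.64. Nanog, which is expressed in the epiblast, had 49.8 CPM (45.8 to 54.0) against 497 (492 to 502). Over single members Nanog ranged from 0 to 989 CPM with a median of 25.1, against a median of 404 in comparison cells. Sox2 had 72.2 against 610 CPM, Klf2 70.6 against 543, Zfp42 (Rex1) 214 against 1201, Esrrb 12.7 against 53.3 and Klf4 128 against 400. Thinned members with a UMI were 26.3% for Nanog, 34.8% for Sox2 and 79.5% for Zfp42, against 88.3%, 93.4% and 97.3% of comparison cells. Free RNA from the other cells of the library was not estimated, so these shares in members are not read as expression.

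Other pluripotency genes differed little or were higher. Pou5f1 (Oct4) had 279 CPM (270 to 289) against 308 (305 to 312), a ratio of 0.906 (0.873 to 0.939), with a median over single cells of 258 against 292, and was seen in 90.6% and 91.8% of thinned cells. Dppa5a had 9978 against 12508 CPM, Utf1 212 against 191 and Tbx3 676 against 522. Klf5 was higher at 725 against 351 CPM, Sall4 at 410 against 202 and the RNA-binding protein Lin28a at 102 against 29.7. Klf5 and Sall4 lay close to 2-fold. Sall4 was under it in 4 of the settings run, with log2 ratios of 0.81 without subgroup 3, 0.88 with a 2C limit of 0.01%, 0.94 without subgroup 2 and 0.96 with Dab2 left out of the rule. Klf5 had 0.88 without subgroup 1. Of 7 measurable genes of primed pluripotency 2 were higher, the DNA methyltransferases Dnmt3b at 353 against 34.9 CPM and Dnmt3a at 90.9 against 43.9, and 5 were lower. The 5 were Foxd3, Otx2, Sox3, Sox4 and Pou3f1, and the list's median was -1.19. Dnmt3a, Sox4 and Pou3f1 also lay close to 2-fold and were under it in 3, 2 and 5 of the settings run, with Dnmt3a at 0.96 on the log2 scale as a mean of each cell's CPM and 0.93 without subgroup 1.

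The 15 lower genes with the largest ratio were Fgf4, Foxd3, Nanog, Eras, Cobl, Ifitm1, Sox2, Klf2, Meioc, Tdgf1, Runx1t1, Tcea3, Fgf17, 6330410L21Rik and 1700019D03Rik, with log2 ratios from -3.46 to -2.77. All 15 also stayed past 2-fold in every setting run, which their choice by the largest ratios again largely fixed. Foxd3, a forkhead repressor of pluripotent cells, had 2.23 against 32.7 CPM. Eras, a Ras-like GTPase of embryonic stem cells, had 5.83 against 65.5, the actin nucleator Cobl 4.89 against 52.99, the interferon-induced membrane protein Ifitm1 22.7 against 202, Meioc, which acts in meiosis, 3.60 against 31.7 and the elongation factor Tcea3 5.15 against 41.5.

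For cell cycle, p53 and metabolic lists the counts are given beside the 6.16% higher and 5.14% lower of all measured genes. S phase genes had 0 of 41 higher and 3 lower (Ung, Cdca7 and Hells), with a median log2 ratio of -0.37 and a summed level of 3567 against 4947 CPM. The interval of that median, from the order of the genes, was -0.51 to -0.29. Genes of G2 and M phase had 0 of 52 higher and 1 lower (Lbr), with a median of -0.09. p53 targets had 0 of 15 in either direction and a median of -0.02. Glycolysis had 1 of 15 lower, the glucose transporter Slc2a1 at 71.2 against 211 CPM, and a median of -0.18, and the 11 measurable mitochondrially encoded genes had 0 in either direction and a median of -0.15.

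Members with a higher marker share were then set beside members with a lower share. The 4 bands held 48 cells (0.03 to 0.06%), 100 cells (0.06 to 0.12%), 146 cells (0.12 to 0.24%) and 48 cells (0.24% and above), with median UMIs from 31610 to 34338.5. They also differed in 2C transcripts: the median 2C share was 0.0163%, 0.0125%, 0.00854% and 0.00886% in that order. Listed 2C genes outside the rule summed to 2964, 2176, 1162 and 1542 CPM. How far this sets the values along the bands was not tested. Foxq1 had 147, 242, 432 and 482 CPM in them in that order, and Sparc 913, 1064, 1570 and 2166. Cubn spanned a wide range, from 14.0 to 192 CPM, as did Ctsl, from 792 to 3216. Amot showed no such order, with 208, 171, 173 and 200 CPM, and Dkk1 went from 91.8 to 138. Snai1, of the parietal endoderm list, had 74.3, 66.1, 40.8 and 62.8 CPM. Already in the lowest band these genes were above the comparison cells.

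Some pluripotency genes went the other way along the bands and others did not. Nanog had 95.3, 66.4, 31.6 and 21.1 CPM, Sox2 160, 79.6, 48.1 and 36.3, and Tdgf1 281, 172, 104 and 42.9. In the lowest band Nanog was at 95.3 CPM where comparison cells had 497. Pou5f1 stayed between 246 and 293 CPM in all bands. Klf5 had 455, 604, 892 and 745 CPM, Lin28a 76.6, 102, 111 and 100.4, Sall4 435, 365, 410 and 486, and Tbx3 629, 655, 713 and 651, so that none of these 4 was lower in the last band than in the first. GFP had 160, 190, 118 and 147 CPM and followed no order.

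**Figure D3:**
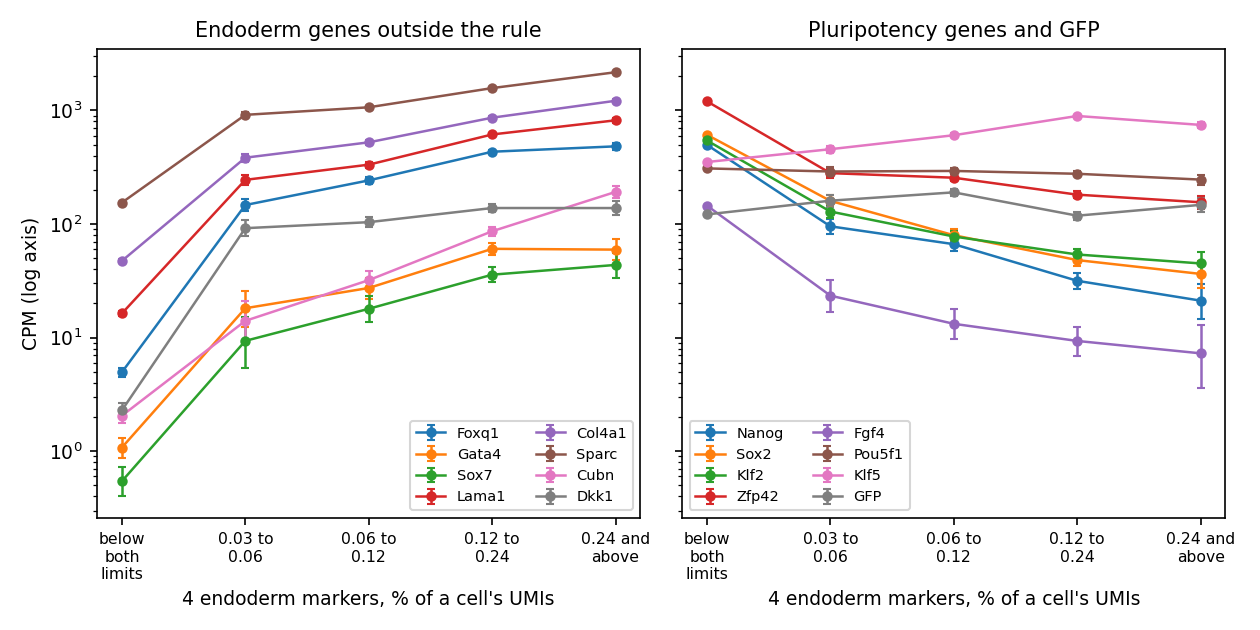
Summed CPM on a log axis in comparison cells and in 4 bands of the endoderm marker share (percent of a cell's UMIs), with exact 95% Poisson intervals as bars. The genes drawn on the left, all outside the rule, are higher in the last band than in the first. On the right Nanog, Sox2, Klf2, Zfp42 and Fgf4 are lower, and Pou5f1 stays between 246 and 293 CPM within the bands.

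Clustering the 342 cells alone, without the 32 rule genes, gave 4 subgroups, which were left unnamed because their genes are those that formed them. All 4 held the endoderm genes outside the rule above comparison cells: Foxq1 had 549, 294, 193 and 185 CPM in subgroups 1 to 4, Lama1 707, 386, 651 and 213, and Serpinh1 904, 559, 706 and 286. Subgroup 1 (117 cells, 34.2%) had the most Sox17, at 268 CPM against 45.4 to 81.0 in the others, and was led by the water channel Aqp8 at 39.7 CPM against 6.67 in the other members, with Fam189a2, the cyclin Ccnd2 and Fst. It had the least GFP, at 69.8 CPM. Subgroup 2 (98 cells, 28.7%) was led by Krt18 (186 CPM), Gclc, a subunit of the enzyme that starts glutathione synthesis (77.6 CPM), and Krt8 (174 CPM), with Lefty2 at 56.6 and Lefty1 at 49.4, and had 214 CPM of GFP.

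Subgroup 3 (67 cells, 19.6%) had among its leading genes some with still higher levels in the cells past both limits. Gm16243, annotated as antisense to Pde8b, had 180 CPM against 13.6 in the other members, Scamp1 992 against 98.1, and Sp140 287 against 36.0. Reads of Gm16243 and Pde8b cannot be told apart where they overlap without strand. Subgroup 3 also had 437 CPM of Lmx1a, 142 of Snai1, 574 of P4ha2 and 288 of GFP. Its median 2C share was 0.0305%, against 0.00615%, 0.0122% and 0.0103% in subgroups 1, 2 and 4, so that it lay nearest the 2C limit.

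Subgroup 4 (60 cells, 17.5%) had the most Tdgf1, Sox2, Nanog, Klf2 and Zfp42 and the lowest median share of the 4 markers, 0.0673%. It had 458 CPM of Tdgf1, 205 of Sox2, 142 of Nanog, 168 of Klf2 and 415 of Zfp42, against 43.7 to 71.0 CPM of Tdgf1 and 22.0 to 27.5 of Nanog in subgroups 1 to 3. Some other pluripotency genes were highest elsewhere: Pou5f1 and Klf5 in subgroup 1, at 305 and 872 CPM against 291 and 551 in subgroup 4, Sall4 in subgroup 3, at 679 against 280, and Tbx3 and Utf1 in subgroup 2, at 756 and 238 against 623 and 191. In subgroup 4 Sparc was 714 CPM, Gata6 416 and Dab2 228. Its cells had a median of 37155 UMIs, against 29071 to 34428 in the others, and it held all 9 members with more than 2 times the library's median UMIs, 15% of its cells. No doublets were removed, and the part of cell mixtures in its profile was not tested. Without these 60 cells 561 genes were higher and 572 lower, and without the 9 high-UMI cells and their counterparts 518 and 443.

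**Figure D4:**
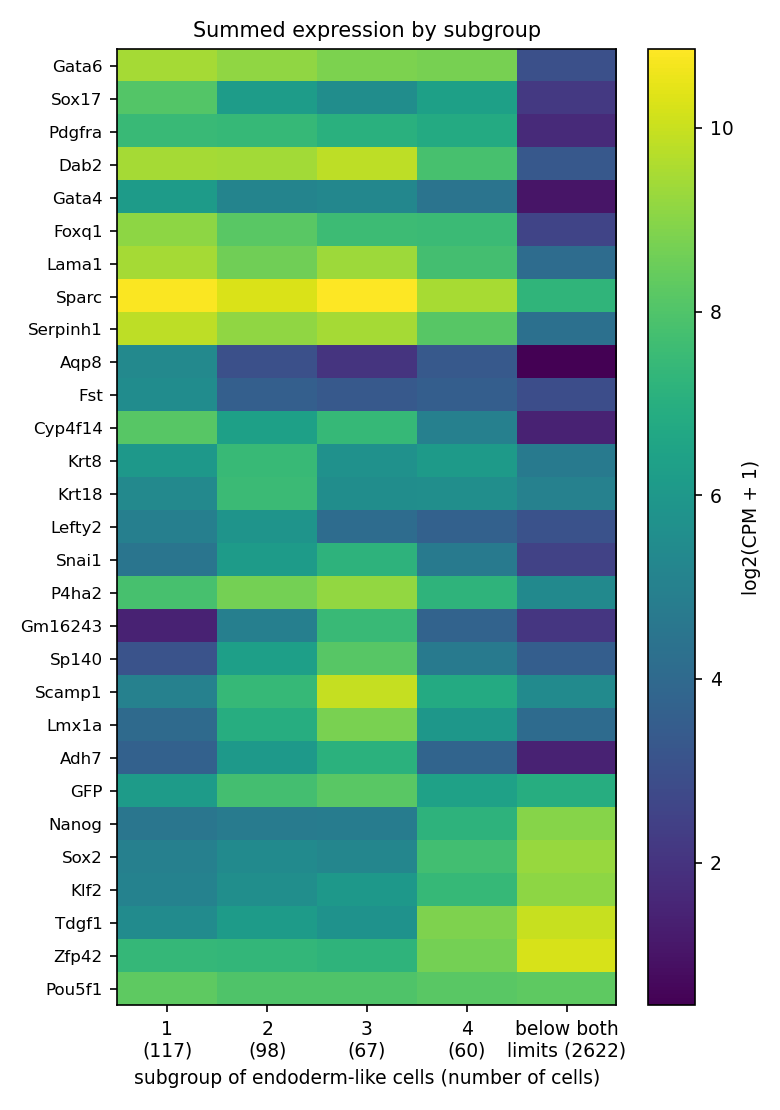
Colour gives log2(CPM + 1) of summed UMIs for selected genes (rows) in the 4 subgroups of endoderm-like cells and in comparison cells, with the number of cells under each column. Sox17 and Aqp8 are brightest in subgroup 1, Krt8 and Krt18 in subgroup 2, Gm16243 and Scamp1 in subgroup 3, and Nanog, Sox2 and Tdgf1 are brighter in subgroup 4 than in the other 3.

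The same limits found 225 endoderm-like cells among 3824 cells of the negative library, or 5.88% (5.16 to 6.68), and 0 cells past both limits (exact binomial upper bound 0.0964%). Their median was 40328 UMIs, deeper than in the positive library. Against the 3596 negative-library cells below both limits, 445 of 7601 genes (5.85%) were higher and 263 (3.46%) lower. Of the genes higher in the positive library 302 were also higher in the negative library, which is 60.04% of 503 and 67.9% of 445. Of the 503, 376 were measured in the negative library, and 367 of those had a ratio of the same sign there. Of the lower genes 209 were shared, 49.8% of 420 and 79.5% of 263, with 338 of the 420 measured in the negative library and 334 of the same sign. No gene was 2-fold higher in 1 library and 2-fold lower in the other. Both contrasts were cut by the same 4 markers, which fixes part of this sharing.

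Some endoderm genes had similar levels in members of both libraries and others did not. Foxq1 had 341 CPM in positive-library members and 330 in negative-library members, Gata4 44.4 and 43.7, Sox7 27.7 and 26.0 and Srgn 308 and 296. The parietal endoderm genes Snai1 and Fst had 55.9 and 17.6 CPM and 22.4 and 48.7 CPM, and the basement membrane genes summed to 4838 and 3327 CPM. In the comparison cells of the 2 libraries that sum was 851 and 536 CPM. Outside the endoderm lists Amot had 181 and 59.3 CPM, P4ha2 318 and 77.6, Krt18 82.4 and 17.4 and Fgfr2 23.8 and 46.0. Comparison cells had 8.30 and 1.64 CPM of Amot, 41.1 and 7.59 of P4ha2, 31.7 and 7.54 of Krt18, 4.72 and 0.968 of Snai1, 4.51 and 2.06 of Fgfr2 and 6.56 and 6.09 of Fst, so that the gaps in Amot, P4ha2, Krt18, Snai1 and the basement membrane sum were also present outside the endoderm-like cells. Pou5f1 had 279 and 378 CPM and Nanog 49.8 and 27.0. Whether such gaps come from the reporter state or from the library was not tested, since each has 1 library.

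**Figure D5:**
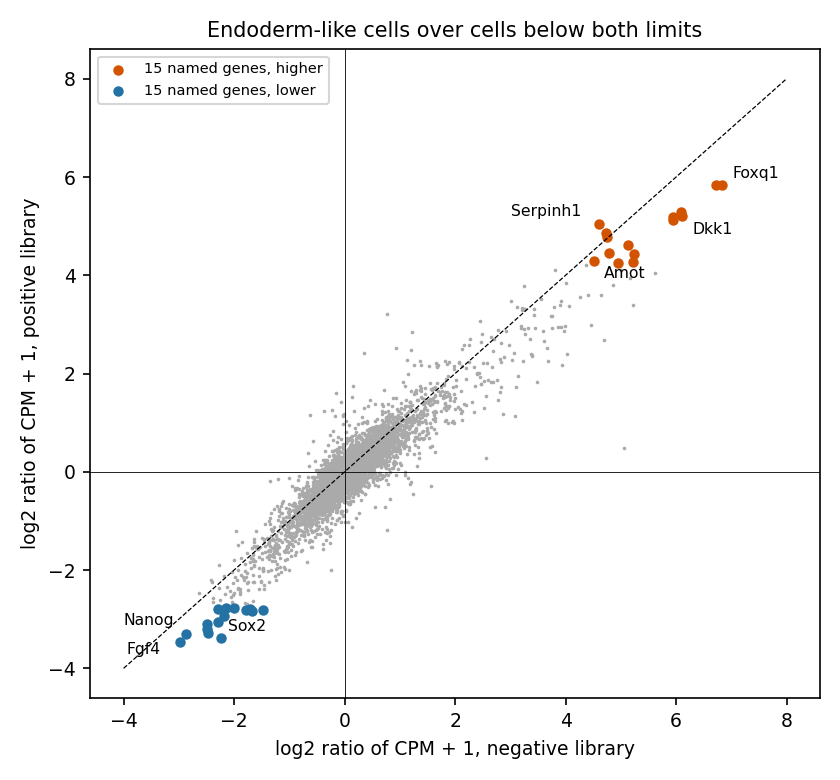
Each point is a gene measured in both libraries; the axes give the log2 ratio of CPM + 1 between endoderm-like cells and cells below both limits of the same library, and the dashed line marks equality. The 15 higher and 15 lower genes named in the text lie in the upper right and lower left in both libraries.

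The positive library also held 166 cells at or above both limits, with a median of 23849 UMIs. All 10 endoderm transcription factors summed to 144 CPM there and to 473 in members, with Foxq1 at 96.3 CPM against 341, Gata4 at 14.8 against 44.4 and Sox7 at 6.003 against 27.7. All 14 basement membrane genes summed to 4569 against 4838 CPM, with Sparc at 1718 against 1403 and Lama1 at 410 against 504, and all 12 collagen processing genes to 2239 against 2434, with Serpinh1 at 551 against 644. The 4 rule genes cut both classes, in different proportions: Gata6 had 196 CPM there against 559 in members, while Dab2 had 638 against 625. How far the rule sets the other differences was not tested, and nothing is read from them.

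Of 15 measurable genes of the 2C programme outside the rule, 5 were higher in members than in comparison cells, 0 were lower and 10 were neither. Of all measured genes 6.16% were higher and 5.14% lower. The list's median log2 ratio was 0.58, and its interval from the order of the genes, -0.19 to 1.16, includes 0. In the same list 6 more genes were under the filter. Lmx1a had 125 against 16.1 CPM, Gm20767 282 against 80.7, Platr31 263 against 117 and Ddit4l 111 against 49.7. All 5 were higher still in cells past both limits, with Lmx1a at 835 CPM and Platr31 at 1427. Without subgroup 3 the log2 ratios of Gm20767, Platr31 and Ddit4l were 0.85, 0.50 and 0.59, under 2-fold, while Lmx1a stayed above it. With a 2C limit of 0.01% those of Gm20767, Platr31 and Ddit4l were 0.61, 0.49 and 0.32, and without Dab2 in the rule those of Platr31 and Ddit4l were 0.83 and 0.80.

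A further set of genes, not taken from a list of 2C genes, was defined after the values were seen. It held those of the 503 that were under 2 CPM in both negative-library classes, which were 63 genes, 12.5% of the 503. All 63 had more CPM in cells past both limits than in members, and 60 had more in the 1273 cells above the 2C limit alone. Among the other 440 higher genes 95 had more in the cells past both limits. The 63 genes were chosen by near absence from the negative library, and the classes above the 2C limit were cut by 2C share. How far these choices set the counts was not tested, and nothing is read from them. The alcohol dehydrogenase Adh7 had 47.4 CPM in members, 1.71 in comparison cells and 75.3 in cells past both limits. Gm16243 had 41.6, 3.26 and 281 CPM, Sp140 78.2, 10.9 and 425, and the chemokine Ccl3 49.2, 5.81 and 119. The negative-library members had 0.105 CPM of Adh7 and of Gm16243.

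The 63 genes summed to 2387 CPM in members, 550 in comparison cells and 12140 in cells past both limits. The excess of members over comparison cells was fixed by the choice of the genes, and these sums are a description. In members the sum was 486 CPM in the 29 cells without 2C UMIs, 963 in the 134 cells with up to 0.01% and 3819 in the 179 cells with 0.01 to 0.05%. In comparison cells the same steps gave 292, 350 and 741 CPM. By subgroup the sum was 505, 2563, 7493 and 1181 CPM, and it was 6464 CPM in the 1273 cells above the 2C limit alone, below that of subgroup 3. With a 2C limit of 0.01% for both classes 18 of the 63 stayed at least 2-fold higher, and without subgroup 3 it was 22. Without Dab2 in the rule 46 stayed.

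The GFP transcript checks the reporter label. It had 149 CPM (142 to 156) in endoderm-like cells and 121 (119 to 124) in comparison cells, against 368 in cells past both limits and 423 in cells above the 2C limit alone. In the negative library it had 1.26 CPM in endoderm-like cells and 0.402 in cells below both limits. Over single members GFP ranged from 0 to 1206 CPM with a median of 83.9, and 81 members (23.7%) had none. After thinning it was seen in 52.3% of members (46.9 to 57.7), in 48.1% of comparison cells (46.2 to 50.03) and in 1.33% of negative-library endoderm-like cells. Members without 2C UMIs had 62.9 CPM (47.5 to 81.7), those with up to 0.01% had 94.1 and those with 0.01 to 0.05% had 206, and in comparison cells the same steps gave 58.3, 81.6 and 161. In both classes GFP was higher where more 2C UMIs were present.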

How the data were processed

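Single-cell RNA was measured as 1 library for each labelled group. Per gene and cell, the authors deposited integer counts in sparse matrices of 55415 features, 1 of them GFP. These counts are read as UMIs because cells carry barcodes of 16 bases, although the labels do not state molecule counting and their extraction text describes a bulk RNA kit. Per the submitters' processing notes, FastQC 0.11.2, Trim Galore 0.6.4, STAR 2.7.6a and the build mm10 were used, with no role or order given. The cell caller, the annotation and the strand setting of the counting are not given in the sources used here. GENCODE M21 (GRCm38, the build mm10) held 52081 of the feature IDs and gave gene positions.

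Cells with at least 10000 UMIs were put into 4 classes by the 2 limits. UMIs were summed per class and scaled to CPM, and log2 ratios used CPM + 1. Intervals are exact Poisson for summed counts, Clopper-Pearson for shares and exact conditional for ratios. Before shares of cells with a UMI were taken, cells were randomly reduced to 10000 UMIs each (thinning). Members were clustered without the rule genes, on genes in at least 5 cells, by the Leiden method at resolution 0.5 (15 neighbours, 20 components, 2000 variable genes). No doublet caller was run. An alternative left out cells above 2 times the library's median UMIs.

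The members, the limits and the gene lists were chosen with earlier results of these data known. Named genes are the rule markers, GFP, list members, and, for higher and for lower genes, the 15 largest log2 ratios among genes counted as different whose sign held in all scalings. Others, such as the leading genes of subgroups and Scamp1, Sp140, Adh7 and Gm16243, were chosen after their values were seen. Some list members are counted but not reported here by name. Alternatives changed the scaling, the filter, the limits, the comparison cells and the weight of cells, 16 of them planned and 5 added after seeing the data, beside other clustering resolutions. The fold limit and the ratio intervals were tested on simulated counts with counting error alone, and thinning was checked on cells of the positive library. Cell classes, bands, clustering and the letter search were not tested in this way. The software was scanpy 1.11.5 with leidenalg 0.10.2 in Python 3.11.15 (pandas 2.3.3, scipy 1.17.1, numpy 2.4.6), and edgeR 4.0.16 in R 4.3.3, whose TMM factors served as a scaling.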

Additional observations from a re-analysis of the deposited data

How the results depend on the processing

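In place of 503 higher and 420 lower genes, a filter of 1 CPM gave 783 and 992, no filter 827 and 992, and a ratio of at least 4 gave 163 and 82. The share of higher genes among all counted was 54.5%, and it was 44.1%, 45.5% and 66.5% under these settings. The 342 cells became 163 with a 2C limit of 0.01% and 225 without subgroup 1, and the 4 subgroups became 8 at a resolution of 1.0. Under the other settings run, these counts were within 1.5 times the reported ones. Of 460 list medians under settings that could move them, 456 stayed within their intervals (from the order of the genes of a list, which are not replicates; wide for short lists) and 4 moved: to -2.45 after thinning, -1.15 at 1 CPM and -0.76 with no filter for the retinoic acid list, and to -0.24 for the mitochondrially encoded list with a 2C limit of 0.01%. Medians of lists whose interval includes 0 crossed 0 in 20 values: 9 of receptors and PDGF ligands, 3 of BMP targets, 3 of p53 targets, 2 of imprinted genes, 2 of Wnt targets and 1 of the Nodal pathway. No other list median changed sign. Of 6318 log2 ratios of 351 single genes, 5228 stayed within the counting interval of the reported ratio and 1090 moved out of it; none of a gene counted as higher or lower changed sign. The fold limit cannot move a median or a ratio, and a filter cannot move a single gene's ratio, so these settings are not counted there. Of 56 list members counted as higher 42 stayed past 2-fold under every setting run, and of 41 counted as lower 33 did. The others included Ddit4l, Dnmt3a, Fst, Gm20767, Hexa, Klf5, Krt18, Platr31, Plod3, Ppib, S100a10 and Sall4, and, among lower genes, Fgfr1, Hells, Id2, Pou3f1, Smad7, Sox4 and Ung; the cause was not tested. No paired analysis was possible because there is a single library per group, so no library could be left out either. Depth limits genes under 10 CPM, whose ratios are not read. The settings without a subgroup or without shared barcodes were chosen after seeing the data.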

Other observations

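Several genes outside the gene lists were among the higher genes of endoderm-like cells; they were picked after their values were seen. Fbp2, a fructose bisphosphatase, had 384 CPM (373 to 396) in members and 22.3 in comparison cells of the positive library, and 450.0 and 8.18 CPM in the matching classes of the negative library. The carbonic anhydrase Car4 had 159 against 14.3 CPM in the positive and 174 against 3.67 in the negative library. The thrombin receptor F2r had 149 against 15.4 and 116 against 9.84 CPM. Klb (beta-klotho, a co-receptor for endocrine FGFs) had 25.05 against 0.51 and 17.5 against 0.327 CPM, and the heparan sulfate sulfotransferase Hs3st1 had 49.6 against 1.94 and 49.7 against 0.586. The secreted protease Htra1 had 94.8 CPM in positive-library members, 126 in negative-library members and 53.3 in cells past both limits. Of these 6 genes each was higher in members than in comparison cells of both libraries.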
